A study of Xenopus tropicalis with 13 samples.

Results

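The morpholino experiment at the start of gastrulation compared 3 single whole embryos of Xenopus tropicalis, the western clawed frog, injected with a Taf15 antisense morpholino oligonucleotide (MO) with 3 uninjected embryos, all at stage 10. These 6 embryos were chosen by their labelled stage and treatment from the 13 samples of the series, whose other 7 embryos were at stage 15. Polyadenylated RNA was sequenced from each embryo by the TruSeq RNA v2 protocol, which does not keep the strand of a read, so reads of an overlapping gene cannot be told apart from those of a listed gene or bin. The 2 deposited tables used here listed 292 genes that differed in level after injection, and 228 bins, or segments of genes, in 192 genes, that took another share of the reads of their gene. The MO-injected titles carry the code trns1MO, which the labels do not explain, and neither the strain nor the injected dose is given. All embryos were kept in 1/9 MR medium. The controls were uninjected, so an effect of injection or of a morpholino as such cannot be told apart from loss of Taf15, and embryos with a mismatch oligonucleotide were not analysed here.

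Taf15 belongs to the FET family of RNA-binding proteins. These proteins associate with the transcription machinery and with nascent RNA, and affect both transcription and splicing. At stage 10 the dorsal lip forms, maternal RNA is being replaced by zygotic transcripts, and signals of the Nodal, Wnt, BMP and FGF families set out the germ layers. Bins are the segments of a gene in which reads are counted. A bin that lies in an intron gains reads where that intron is kept in the polyadenylated RNA, or where another transcript covers it.

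The total count of each library is not in the tables, so the depth is unknown and raw bin counts are not corrected for it. Over the listed bins, which were selected for being higher after injection, the MO-injected embryos had 12088 to 17650 reads and the uninjected embryos 1105 to 1440 reads. These sums describe the selected bins and not the libraries. All 6 titles carry the same lane code, and the labels name no run, preparation day or other batch. No listed gene or bin belonged to taf15, so the knockdown could not be checked on RNA. They hold only items past the authors' adjusted p of 0.1, so absence from a list does not show that a gene was unchanged, and the levels of germ layer markers outside the lists could not be checked. The authors' p-values rest on the spread between 3 and 3 separate embryos. The sources do not say whether the embryos shared a clutch.

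The expression table answered which transcripts differed in level. It listed 292 of at least about 13317 tested genes, or 2.19%, with 127 (0.954%) higher and 165 (1.24%) lower in MO-injected embryos. Its header names no direction. Positive values are read as higher in MO-injected embryos because, over 11 genes that were also in the bin table, the fold change went with the ratio of raw counts (Spearman correlation 0.709, a description). Most changes were moderate, with a median log2 fold change of 0.95 among higher genes and -1.0 among lower genes by the authors' deposited table. A change of at least 2-fold was reached by 54 higher and 81 lower genes, and one of at least 4-fold by 15 higher and 10 lower genes. Standard errors by the authors' deposited table lay between 0.0900 and 1.11 on the log2 scale, with a median of 0.246. The mean normalised count, over embryos of both stages, was under 100 in 29 listed genes, among them adam19, camk4 and ninj1, whose changes were large. In whole embryos, fewer cells of a type and less RNA per cell cannot be told apart, and this holds for each gene below.

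A role was assigned to 232 listed genes, 99 higher and 133 lower, and 60 genes were left without one. The 20 roles were assigned from general knowledge after the genes and their values were seen, so their counts are descriptions without a test. They are read against 43.5% of higher genes and a median log2 fold change of -0.60 over all 292. Genes of RNA processing (1 higher, 11 lower), kinases and phosphatases (3 and 10), lipids and membranes (3 and 10), transporters and redox carriers (3 and 9), and carbohydrate, amino acid and nucleotide metabolism (3 and 8) were mostly lower. Transcription factors (17 and 10), replication and repair factors (8 and 3), cell division factors (6 and 4) and proteins of the nuclear envelope and pore (4 and 1) were mostly higher, though no gene of the last group changed by 2-fold.

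**Figure D1:**
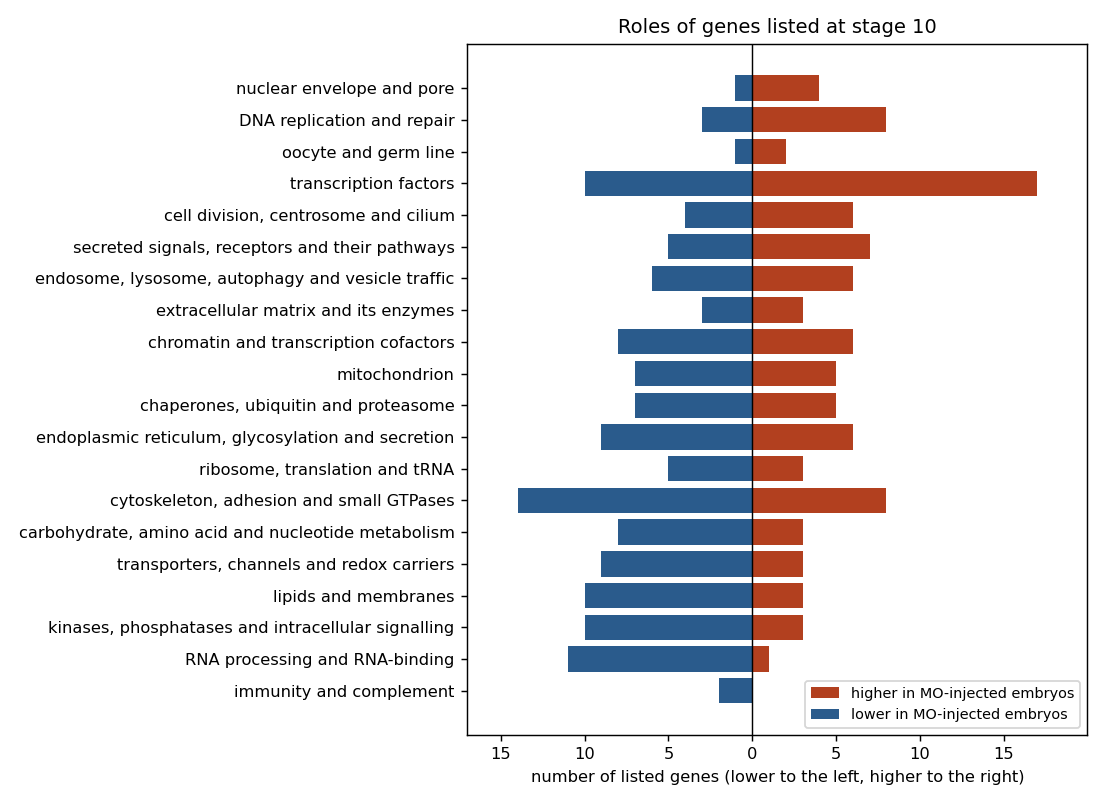
Numbers of listed genes at stage 10 by assigned role, from the role with the largest share of higher genes at the top to the one with the smallest at the bottom. Bars to the right count genes higher in MO-injected embryos and bars to the left count lower genes; transcription factors had 17 higher and 10 lower genes, RNA processing 1 higher and 11 lower.

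The values in brackets that follow are log2 fold changes, MO-injected over uninjected, with their standard error. Transcription factors were the largest group, with 27 listed genes and a median log2 fold change of 0.74. Factors of mesoderm and of epithelial-to-mesenchymal transition were among the higher ones. In the authors' deposited table they were snai1 (1.18, SE 0.155, adjusted p = 5.12e-11) and snai2 (1.14, SE 0.328), repressors of the Snail family that act in mesoderm and neural crest, and mespa (1.09, SE 0.237), a basic helix-loop-helix factor of presomitic mesoderm. Also higher by the authors' deposited table were foxh1 (0.89, SE 0.193), the DNA-binding partner of Smad proteins in Nodal signalling, and gata2 (0.60, SE 0.175), a factor of ventral ectoderm and blood. Of 28 mesoderm and somite genes, 3 were listed, with mespa and gata2 higher and the Wnt ligand gene wnt8a lower. Of 17 neural crest genes, 3 were listed, and all (snai1, snai2 and adam19) were higher. The mean normalised count of adam19, taken over embryos of both stages, was 17.8, the lowest of all listed genes. Of all tested genes, 2.19% were listed and 0.954% were higher. The list of neural crest genes does not take in every such gene. The receptor genes erbb3 (-1.09, SE 0.305) and ngfr (-0.70, SE 0.152), outside it, were lower by the authors' deposited table. A group of basic helix-loop-helix and leucine zipper genes was drawn up by symbol, which does not take in every such factor. The group leaves out figla (-1.81, SE 0.363), which was lower, and tfap4 (0.66, SE 0.214), which was higher, by the authors' deposited table. How many of its members were tested is not known. The group had 5 higher genes and 1 lower gene, beside 0.954% higher and 1.24% lower of all tested genes. Besides mespa, the higher ones by the authors' deposited table were the immediate early gene fos (1.3, SE 0.251, adjusted p = 0.000116), the leucine zipper repressor gene nfil3 (1.26, SE 0.360, adjusted p = 0.0359), the ER-membrane factor genes nfe2l1 (0.76, SE 0.207) and atf6b (0.74, SE 0.219), while the cAMP-responsive factor gene creb1 (-0.82, SE 0.172) was lower.

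Lower transcription factors included regulators of non-neural ectoderm and of neural tissue. In epidermis and placodes, foxi1 (-2.74, SE 0.561, adjusted p = 0.000358), which specifies ionocytes, dlx3 (-1.98, SE 0.451), a homeobox factor of epidermis and placodes, and tp63 (-1.01, SE 0.327), which maintains basal epidermis, were lower by the authors' deposited table. The list of epidermis, placode and gland genes had 1 higher and 4 lower listed members of 32, beside 0.954% higher and 1.24% lower of all tested genes. The higher one by the authors' deposited table was agr2 (2.07, SE 0.460), an ER protein of the cement gland, and the other lower one was has-rs (-1.71, SE 0.410), a gene of hyaluronan synthase type by its name. Of 43 neural progenitor and neurogenesis genes, 5 were listed and all were lower, beside 2.19% listed and 1.24% lower of all tested genes. By the authors' deposited table these were myt1 (-1.98, SE 0.503), insm1 (-1.02, SE 0.329) and sox21 (-0.82, SE 0.216), transcription factors of neuronal differentiation, with the Delta ligand gene dlc (-1.59, SE 0.410) and elavl3 (-1.0, SE 0.279), which encodes a neuronal RNA-binding protein. The brain factor genes nr2e1 and dmrta2 moved in opposite directions by the authors' deposited table, at -1.79 (SE 0.515) and 1.48 (SE 0.385).

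Further factors with large changes, chosen after their values were seen, were hoxb6 (2.06, SE 0.618), the 1 listed Hox gene, and the zinc finger genes znf385b (1.46, SE 0.398) and znf329 (1.04, SE 0.325), all higher by the authors' deposited table. Smaller increases by the authors' deposited table were those of klf10 (0.87, SE 0.274), an early gene of TGF-beta signalling in mammals, tfap4 (0.66, SE 0.214), a helix-loop-helix factor of E-box sites, foxn3 (0.63, SE 0.169), a forkhead repressor, and gpbp1 (0.99, SE 0.232), a promoter-binding factor. The atypical repressor gene of the E2F family e2f7 (-0.90, SE 0.287) and the ETS repressor gene etv6 (-0.76, SE 0.210) were lower by the authors' deposited table.

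Secreted signals, receptors and their pathways had 7 higher and 5 lower genes, with a median log2 fold change of 0.56. Among those changed at least 2-fold, 1 was higher and 3 were lower, so the lean turned. Ligands and co-receptors moved in both directions. In the authors' deposited table tdgf1 (1.13, SE 0.351), a co-receptor of Nodal, was higher, and wnt8a (-0.91, SE 0.292), the Wnt ligand of ventrolateral mesoderm, was lower. Of 48 Wnt pathway genes, wnt8a and the co-receptor gene lrp5 (0.47, SE 0.151) were listed by the authors' deposited table, beside 2.19% of all tested genes, and outside that list the GSK3-binding protein gene frat1 (0.92, SE 0.228) and the kinase gene tnik (0.95, SE 0.223), both of which act on beta-catenin signalling, were higher. Among receptors by the authors' deposited table, fgfr4 (0.85, SE 0.225, adjusted p = 0.0162), for fibroblast growth factors, and plxnb3 (0.82, SE 0.261), a semaphorin receptor, were higher. The receptor genes erbb3 (-1.09, SE 0.305), for neuregulins, and ngfr (-0.70, SE 0.152), for neurotrophins, were lower by the authors' deposited table, as was tmeff1 (-1.01, SE 0.302), a membrane protein that inhibits Nodal signalling in Xenopus. The Notch pathway had dlc lower and rfng (0.65, SE 0.160), a Fringe glycosyltransferase, higher by the authors' deposited table.

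Kinases, phosphatases and other signalling genes had 3 higher and 10 lower members, with a median log2 fold change of -0.91. The lower ones by the authors' deposited table included camk4 (-3.69, SE 1.00), a calmodulin-dependent kinase, and both the neuronal kinase gene cdk5 (-1.18, SE 0.290) and its activator gene cdk5r1 (-1.89, SE 0.531). Also lower by the authors' deposited table were the stress kinase gene map2k6 (-0.52, SE 0.170), the salt-inducible kinase gene sik1 (-0.70, SE 0.222), and ctdsp2 (-0.51, SE 0.0900, adjusted p = 9.97e-06), a small phosphatase of the RNA polymerase II C-terminal domain. The 3 higher ones by the authors' deposited table were the phosphatase gene dusp28 (1.46, SE 0.467), the TAK1-binding protein gene tab3 (0.61, SE 0.197) and the Janus kinase gene tyk2 (0.49, SE 0.144).

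**Figure D2:**
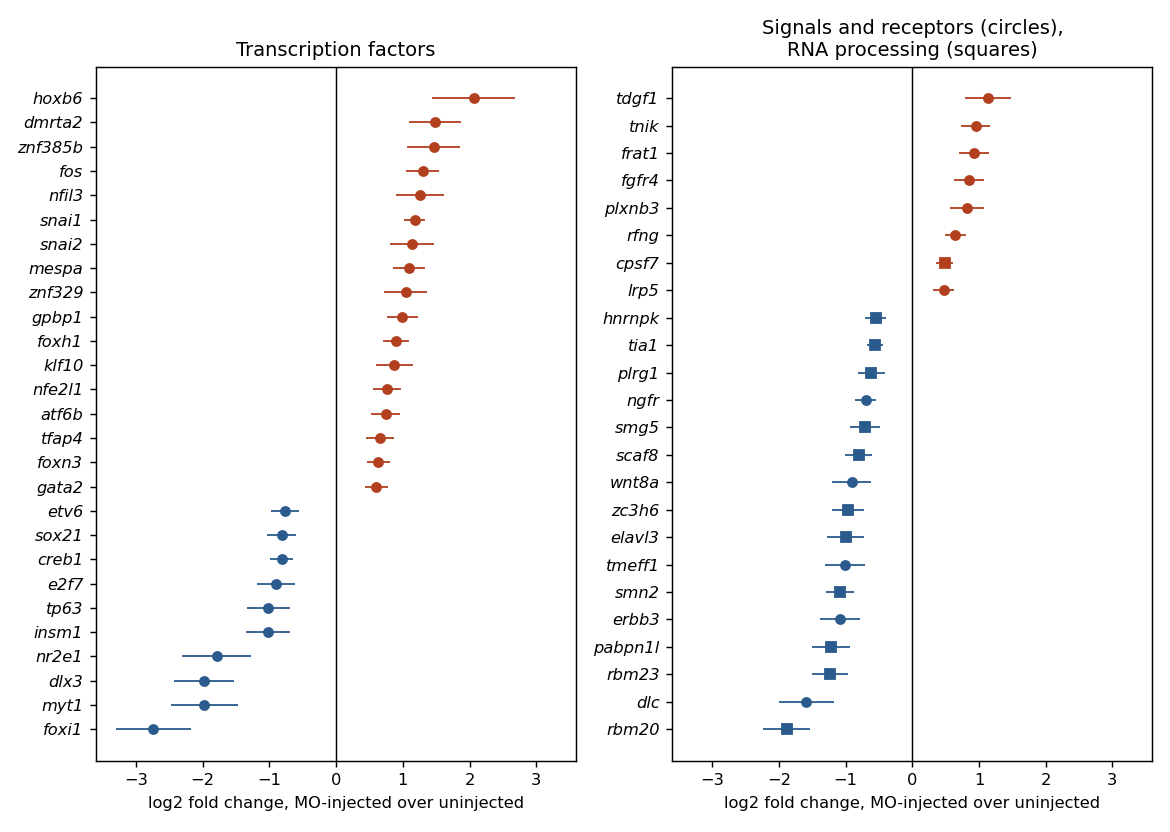
Log2 fold changes of the listed transcription factors (left) and of signals, receptors and RNA processing genes (right) by the authors' deposited table, MO-injected over uninjected, with points to the right of 0 higher in MO-injected embryos and bars of 1 standard error. Factors ran between foxi1 at -2.74 and hoxb6 at 2.06, and of the RNA processing genes, drawn as squares, cpsf7 alone lay to the right of 0, at 0.48.

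RNA processing and RNA-binding genes were lower in 11 of 12 cases, with a median log2 fold change of -0.88. On the narrower list of 111 splicing and RNA-binding genes, 6 were listed and all were lower, where 2.19% of all tested genes were listed and 1.24% were lower. By the authors' deposited table the largest change was that of rbm20 (-1.88, SE 0.353, adjusted p = 5.05e-05), a splicing regulator of muscle genes in mammals, followed by rbm23 (-1.23, SE 0.270, adjusted p = 0.00117), a relative of splicing factors of the RBM39 type. The genes smn2 (-1.08, SE 0.214), of the SMN type that assembles small nuclear ribonucleoproteins, plrg1 (-0.61, SE 0.196), of the Prp19-associated spliceosome, and hnrnpk (-0.55, SE 0.158), an abundant ribonucleoprotein, were lower by the authors' deposited table. Regulators of the 3′ end and of decay were listed too. In the authors' deposited table pabpn1l (-1.22, SE 0.286), a poly(A)-binding protein, scaf8 (-0.80, SE 0.203), which binds the polymerase tail, smg5 (-0.70, SE 0.226), of nonsense-mediated decay, and tia1 (-0.55, SE 0.120), which binds U-rich RNA, were lower. The 1 higher member by the authors' deposited table was cpsf7 (0.48, SE 0.129), a subunit of cleavage factor I. The mean normalised count of hnrnpk, taken by the authors over embryos of both stages, was 33452, the highest of all listed genes.

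Of 8 ribosome and translation genes, 3 were higher and 5 were lower. The lower ones by the authors' deposited table included eif2b3 (-1.38, SE 0.222, adjusted p = 5.21e-07), a subunit of the exchange factor of eIF2, prmt3 (-1.24, SE 0.268), a methyltransferase of a ribosomal protein, nol6 (-1.09, SE 0.293), a nucleolar factor, and dars (-0.86, SE 0.242), aspartyl-tRNA synthetase. The mitochondrial ribosomal protein gene mrps15 (1.1, SE 0.261) and the elongation factor gene eef1b2 (0.85, SE 0.275) were higher by the authors' deposited table.

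DNA replication and repair was mostly higher, with 8 higher and 3 lower genes and a median log2 fold change of 0.66. By the authors' deposited table the higher ones were led by pif1 (1.52, SE 0.394), a DNA helicase, fancd2 (1.24, SE 0.325), of crosslink repair, rrm2.2 (1.03, SE 0.285), a ribonucleotide reductase subunit, and cdc6 (0.70, SE 0.188), which loads the replicative helicase. The checkpoint gene rad17 (0.67, SE 0.193) and the repair polymerase gene poll (0.66, SE 0.198) were also higher by the authors' deposited table. The 3 lower ones by the authors' deposited table were the GINS subunit gene gins3 (-1.26, SE 0.392), the clamp loader gene rfc2 (-0.86, SE 0.279) and the ligase gene lig1 (-0.82, SE 0.231). The mean normalised counts of rrm2.2 and cdc6, taken over embryos of both stages, were 9205 and 8688.

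Cell division genes numbered 6 higher and 4 lower. Increases were largest by the authors' deposited table in prc1.2 (2.16, SE 0.206, adjusted p = 6e-22), which bundles microtubules of the central spindle, and arhgap11a.2 (2.08, SE 0.252, adjusted p = 4.21e-13), a GTPase-activating protein of cytokinesis. The kinase gene cdk1 (0.68, SE 0.209), the driver of mitosis, was higher and its activating phosphatase gene cdc25b (-0.56, SE 0.179) was lower by the authors' deposited table, as were nusap1 (-0.72, SE 0.134), a spindle protein, and cep85 (-0.86, SE 0.153), of the centrosome. At the nuclear envelope, sun1 (0.99, SE 0.246), of the LINC complex, nup35 (0.81, SE 0.219) and nup98 (0.53, SE 0.170), of the pore, and the lamin gene lmnb3 (0.79, SE 0.231) were higher by the authors' deposited table. The exportin gene cse1l (-0.57, SE 0.171), which recycles importin alpha, was lower by the authors' deposited table. Names that carry the suffix 2 after a point mark copies of a gene in Xenopus naming, and how the counting split reads between such copies is not stated.

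Among 14 chromatin and cofactor genes, 6 were higher and 8 were lower. The higher ones by the authors' deposited table included ifrd1 (2.15, SE 0.445), a transcriptional cofactor, brd2 (1.07, SE 0.275), a bromodomain reader of acetylated histones, baz1a (0.68, SE 0.200), of ACF remodelling, and rbbp4 (0.66, SE 0.195), a histone chaperone subunit. Lower by the authors' deposited table were the NCoR partners gps2 (-1.23, SE 0.305) and hdac3 (-0.75, SE 0.204), the last a histone deacetylase. The remodeller gene chd8 (-0.70, SE 0.191) and the SUMO ligase gene pias2 (-0.86, SE 0.257) were lower by the authors' deposited table. So was prothymosin alpha, ptma (-0.62, SE 0.154), an abundant histone H1-binding protein, whose mean normalised count over embryos of both stages was 13842 by the authors' deposited table.

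The endoplasmic reticulum, glycosylation and secretion group had 6 higher and 9 lower genes. The gene with the smallest adjusted p in the whole table belonged here: rpn2, a subunit of the oligosaccharyltransferase that attaches N-glycans, at -3.70 (SE 0.164, adjusted p = 3.49e-108) by the authors' deposited table. The glycosylation enzymes st3gal1 (-1.69, SE 0.519), a sialyltransferase, galnt5 (-1.27, SE 0.400), which starts O-glycans, alg5 (-1.06, SE 0.252), of the lipid-linked N-glycan precursor, and fuk (-1.26, SE 0.360), a fucokinase, were lower by the authors' deposited table. The lectin chaperone gene calr (-0.74, SE 0.160) and the CMP-sialic acid transporter gene slc35a1 (-0.91, SE 0.279) were also lower by the authors' deposited table. Of the 56 genes on the list of N-glycosylation and the ER, 3 were listed and all were lower, namely rpn2, alg5 and calr, while 1.24% of all tested genes were lower. Not all sugar-handling genes moved this way. In the authors' deposited table the glucosidase II subunit gene prkcsh (0.74, SE 0.182), the Golgi phosphoprotein gene golph3 (0.62, SE 0.182) and gne (0.51, SE 0.152), of sialic acid synthesis, were higher.

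Protein folding and degradation had 5 higher and 7 lower genes. The proteasome subunit gene psmb7 (-1.72, SE 0.300, adjusted p = 8.53e-06) and the proteasome-bound deubiquitinase gene uchl5 (-0.88, SE 0.270), with the N-degron ligase gene ubr4 (-0.84, SE 0.214), were lower by the authors' deposited table. Subunits of the same chaperonin differed in direction by the authors' deposited table, with cct3 (-1.14, SE 0.275) lower and tcp1 (0.57, SE 0.180) higher. The HSP90 co-chaperone genes cdc37 (-0.74, SE 0.191), for kinases, and ahsa1 (-0.76, SE 0.243), which activates the HSP90 ATPase, were lower by the authors' deposited table. Higher by the authors' deposited table were lonrf3 (4.07, SE 0.504, adjusted p = 1.83e-12) and trim29 (1.11, SE 0.292), of the RING and tripartite motif types, and the kelch genes kbtbd10 (1.09, SE 0.333) and klhl7 (0.63, SE 0.146).

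Metabolic genes leaned lower. Of 11 genes of carbohydrate, amino acid and nucleotide metabolism, 8 were lower, led by the authors' deposited table by alkaline phosphatase, alpl (-3.0, SE 0.322, adjusted p = 4.99e-17). In glycolysis, gapdh (-1.21, SE 0.320) and aldoa (-0.77, SE 0.172) were lower and the isomerase gene gpi (0.59, SE 0.177) was higher by the authors' deposited table. The glucose transporter gene slc2a2 (-0.71, SE 0.221) was lower, and the aminotransferase gene got2 (1.00, SE 0.221) was higher, by the authors' deposited table. Of 13 lipid and membrane genes, 10 were lower. The sphingolipid desaturase genes degs1 and degs3 moved in opposite directions by the authors' deposited table, at 1.43 (SE 0.187, adjusted p = 3.82e-11) and -1.98 (SE 0.415). The other lower lipid genes by the authors' deposited table included slc27a2 (-1.85, SE 0.348), a fatty acid transporter, arv1 (-1.43, SE 0.241, adjusted p = 2.76e-06), of sterol homeostasis, pitpnb.2 (-1.46, SE 0.259), a phosphatidylinositol transfer protein, lpin2 (-0.98, SE 0.274), a phosphatidate phosphatase, and atp10d (-0.98, SE 0.315), a flippase.

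Mitochondrial genes were split, 5 higher and 7 lower. The iron transporter gene slc25a28 (1.68, SE 0.260, adjusted p = 1.15e-07), the succinate dehydrogenase subunit gene sdhd (0.71, SE 0.196) and the complex I subunit gene ndufab1 (0.82, SE 0.257) were higher by the authors' deposited table. Assembly factors were lower by the authors' deposited table, with bcs1l (-1.50, SE 0.442) for complex III, ndufaf4 (-0.94, SE 0.226) for complex I and atpaf2 (-0.98, SE 0.242) for the ATP synthase. Of 12 transporters, channels and redox carriers, 9 were lower, among them the globin gene cygb (-1.58, SE 0.382), the sulfate transporter gene slc13a4 (-1.26, SE 0.317) and the potassium channel gene kcnk5 (-1.11, SE 0.235) by the authors' deposited table. The redox genes cyb5r4 (-0.70, SE 0.203) and cyb5b (-0.63, SE 0.140), of the cytochrome b5 system, were lower by the authors' deposited table. The 3 higher ones by the authors' deposited table were the electron carrier gene cyb561 (4.38, SE 0.852), which had the largest increase of the genes with a symbol, the junctophilin gene jph1 (1.31, SE 0.197, adjusted p = 4.32e-08) and the proton channel gene hvcn1 (1.13, SE 0.340).

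Cytoskeleton, adhesion and small GTPase genes formed the next largest group, with 8 higher and 14 lower members. Genes of epithelial contacts were lower by the authors' deposited table: ppl (-2.73, SE 0.511, adjusted p = 5.05e-05), a desmosomal plakin, pvrl4 (-1.51, SE 0.399), a nectin, ninj1 (-2.95, SE 0.879), an adhesion protein, and cdh26 (-0.91, SE 0.296), a cadherin. Actin-binding genes were lower by the authors' deposited table for fscn1 (-1.07, SE 0.211), a bundling protein, tmod3 (-0.58, SE 0.171), a pointed-end cap, capza2 (-0.64, SE 0.154), a barbed-end cap, and dbn1 (-0.49, SE 0.110), a drebrin. The fibronectin receptor subunit gene itga5 (1.24, SE 0.163, adjusted p = 5.12e-11) and the actin crosslinker gene flna (0.84, SE 0.184), both of which act in gastrulation movements, were higher by the authors' deposited table, and so was the Ras-like gene rasl11a (2.55, SE 0.800). Genes of small GTPase signalling moved both ways by the authors' deposited table, with the exchange factor gene arhgef40 (1.1, SE 0.314) higher, and its relative arhgef5 (-0.91, SE 0.240) and the GTPase gene rhou (-0.64, SE 0.151) lower. In the matrix group, 3 were higher and 3 were lower. The metalloprotease gene adam19 (3.84, SE 1.11), the cartilage matrix gene chad (2.98, SE 0.806) and the protease inhibitor gene timp3 (0.84, SE 0.247) were higher, and pcolce2 (-0.93, SE 0.281), a procollagen processing enhancer, was lower by the authors' deposited table.

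In the endosome and lysosome group 6 were higher and 6 were lower. The sorting receptor gene sort1 (1.24, SE 0.261), the autophagy protease gene atg4a (1.08, SE 0.275) and the lysosomal membrane gene lamp2 (0.63, SE 0.192) were higher by the authors' deposited table. The FYVE-domain gene zfyve21 (-1.37, SE 0.208, adjusted p = 4.92e-08), the vesicle SNARE gene vamp7 (-0.81, SE 0.210) and the lysosomal channel gene mcoln1 (-0.53, SE 0.160) were lower by the authors' deposited table. Of small GTPases of traffic, rab4b (-0.75, SE 0.188), of recycling endosomes, was lower and arl5c (0.80, SE 0.169), of the Arf-like family, was higher by the authors' deposited table. The germ line group had the cofactor gene btg4 (1.80, SE 0.482), which acts in clearance of maternal RNA in mouse oocytes, and mov10l1 (0.73, SE 0.230), a piRNA helicase, higher, with figla (-1.81, SE 0.363), an oocyte transcription factor, lower by the authors' deposited table. The complement gene c5 (-2.04, SE 0.547) and the B7-family gene cd276 (-1.18, SE 0.357) were both lower by the authors' deposited table. Without an assigned role, the largest decrease and increase of a gene with a symbol were by the authors' deposited table in sh3d21 (-2.26, SE 0.482) and c2orf44 (1.45, SE 0.256, adjusted p = 1.17e-05). The lists of heat shock and stress (29 genes) and of interferon (26) had 0 listed members and that of p53 and DNA damage (32) had 1, fancd2, counts near the 2.19% listed of all tested genes.

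The bin table answered which parts of genes gained a share of their gene's reads. It listed 228 of at least about 161758 tested bins, or 0.141%, and all 228 had a higher share in MO-injected embryos. The smallest change of usage by the authors' deposited table was 1.00 on the log2 scale, the median was 1.62 and the largest was 12.71. A minimum of 2-fold therefore applies to the table, and bins with a smaller or a lower share were not analysed here. Raw and adjusted p-values place the last listed bins at ranks far beyond 228, so most bins past the adjusted p of 0.1 are missing. The 0.141% is thus the share listed and not the share past 0.1. What the single direction owes to this cut was not tested. Raw counts of the 3 MO-injected embryos were all above those of the 3 uninjected embryos in 222 bins, or 97.4%, which the selection favours. With 3 against 3 embryos, an exact permutation test cannot give a two-sided p under 0.1, so no test per bin was added to the authors' adjusted p-values.

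The counts were low for most bins. The mean over the 6 embryos was under 10 reads in 134 bins, with a median of 7.75, and at least 100 reads in 11 bins. No uninjected embryo had a read in 49 bins, or 21.5%, whose totals over the MO-injected embryos were 8 to 69 reads. In 57 further bins the uninjected embryos had 1 to 3 reads together. In the remaining 122 bins the ratio of mean raw counts had a median of 7.11 and ran between 1.40 and 175. Over all 228 bins, the median log2 ratio of counts was 3.04 with a pseudocount of 0.5. It was 2.76 with the uninjected reads of the 49 bins set at a floor of 3 over the group. Usage changes above 3.34 on the log2 scale by the authors' deposited table came only from the 49 bins without a read in uninjected embryos. Among them the value is set by the absent reads, as in adhfe1 (an alcohol dehydrogenase), whose bin E012 had the largest usage change, 12.71, by the authors' deposited table, with 6, 2 and 1 reads in the MO-injected embryos, against 0, 0 and 0 reads in the uninjected embryos. The median usage change by the authors' deposited table was 6.00 in the 49 bins and 1.49 in the others. Over all 228 bins, the median log2 ratio of raw counts, 3.04, was above the median usage change, 1.62. Raw ratios also take in depth and the level of the gene, so those given below are not sizes of a change in usage. Bins were 1 to 5567 bases wide, with 85 under 150 bases, 67 of 600 bases or more and 76 in between, so both short segments and long stretches were listed.

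**Figure D3:**
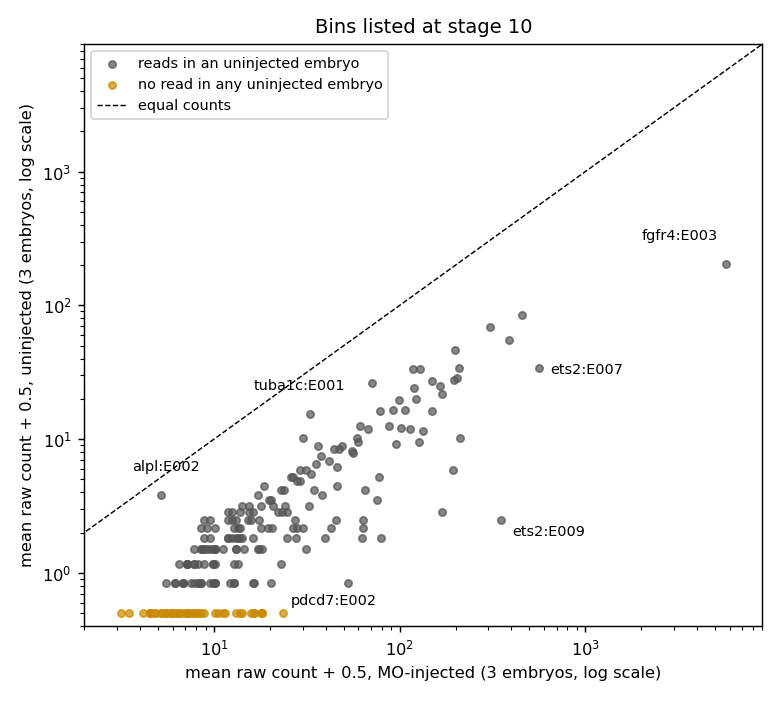
Mean raw count plus 0.5 of each listed bin in the MO-injected embryos (horizontal, log scale) and the uninjected embryos (vertical, log scale), 3 embryos each. All 228 points lie below the dashed line of equal counts, and the 49 bins without a read in uninjected embryos lie along the bottom edge.

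The bin with the smallest adjusted p was in fgfr4, the fibroblast growth factor receptor gene that was also higher in expression. Bin E003, on scaffold_3 from 74879002 to 74881098 on the plus strand (genome build not given in the sources), had 6112, 6578 and 4489 reads in the MO-injected embryos, against 269, 160 and 186 reads in the uninjected embryos. Every MO-injected count was far above every uninjected one, and the ratio of mean raw counts, not corrected for depth, was 27.9. Usage changed by 1.64 on the log2 scale (adjusted p = 3.41e-172) by the authors' deposited table, and the authors' deposited table of retained introns names the 1st intron. At 2097 bases and a mean of 2966 reads it was by far the most covered bin, and without it the sums over listed bins were 7599 to 11072 reads in MO-injected embryos and 945 to 1191 reads in uninjected embryos.

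The next were in ets2 and tfap4, transcription factor genes of the ETS and helix-loop-helix families. Bin E009 of ets2, on scaffold_2 from 135756146 to 135756307 on the minus strand, had 356, 418 and 276 reads in the MO-injected embryos, against 2, 2 and 2 reads in the uninjected embryos, a ratio of 175. Bin E007 of ets2, from 135755735 to 135756025, had 589, 663 and 433 reads in the MO-injected embryos, against 42, 33 and 26 reads in the uninjected embryos, a ratio of 16.7. The groups did not overlap in either, and uninjected embryos had almost no reads in E009 but many in E007. These are the 3rd and 4th introns by the authors' deposited table of retained introns, and usage changed by 3.34 and 1.63 on the log2 scale by the authors' deposited table of bins. Bin E005 of tfap4, on scaffold_9 from 79319082 to 79319392 on the minus strand, had 176, 227 and 175 reads in the MO-injected embryos, against 4, 6 and 6 reads in the uninjected embryos. Its 3rd intron is named by the authors' deposited table of retained introns, and the ratio of 36.1 again came with groups that were far apart.

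The uninjected embryos also had reads in the bins of pygm, the muscle glycogen phosphorylase gene, whose adjacent bins E024 to E026 were all listed. The best covered, E024, had 359, 473 and 325 reads in the MO-injected embryos, against 82, 32 and 49 reads in the uninjected embryos. The groups were well apart, with a ratio of 7.1, and the authors' deposited table of retained introns places all 3 in the 19th intron. The translation initiation factor gene eif2s2 had, in bin E005, 105, 108 and 72 reads in the MO-injected embryos, against 6, 8 and 12 reads in the uninjected embryos. The splicing-associated gene gcfc1 had, in bin E008, 346, 689 and 328 reads in the MO-injected embryos, against 97, 69 and 85 reads in the uninjected embryos. All MO-injected values lay above all uninjected ones in both genes, which the authors' deposited table of retained introns assigns to the 7th and 6th intron.

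Of the genes with 3 or more listed bins, irx2, an Iroquois homeobox factor of neural patterning, had 4 bins. Bin E008, which is 4 bases wide, had 65, 77 and 51 reads in the MO-injected embryos, against 1, 8 and 2 reads in the uninjected embryos. Bin E007 had 75, 131 and 69 reads in the MO-injected embryos, against 22, 13 and 13 reads in the uninjected embryos, a ratio of 5.73. The groups did not overlap in either, and the authors' deposited table of retained introns places the 4 bins in the 1st and 3rd introns. The gene pdcd7, which encodes a protein of the minor (U11/U12) spliceosome, had 6 bins, E002 to E006 and E008. Over all 6, no uninjected embryo had a read. The best covered, E002, had 45, 15 and 9 reads in the MO-injected embryos, against 0, 0 and 0 reads in the uninjected embryos. Its raw ratio was 23 against a floor of 3 reads over the group, without correction for depth. Column 1 held most of these reads, and without it this ratio was 12. For genes with several bins, a read that spans bins can be counted in each, so sums over bins describe reads and give no fold. The deadenylase subunit gene pan3 had 3 bins with 69, 106 and 47 reads in all in the MO-injected embryos, against 4, 5 and 6 reads in the uninjected embryos. In ctdsp2, the phosphatase gene that was lower in expression, 3 bins held 29, 28 and 9 reads in the MO-injected embryos, against 1, 0 and 0 reads in the uninjected embryos. Of unnamed genes, Xetro.K00976 had in bin E005 144, 228 and 134 reads in the MO-injected embryos, against 0, 1 and 6 reads in the uninjected embryos. Xetro.B00592 had in bin E011 192, 312 and 125 reads in the MO-injected embryos, against 10, 12 and 7 reads in the uninjected embryos, and in both the groups were far apart. The unnamed gene Xetro.C00434 had 8 bins over E005 to E014, with 544, 729 and 576 reads in the MO-injected embryos, against 138, 36 and 66 reads in the uninjected embryos.

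**Figure D4:**
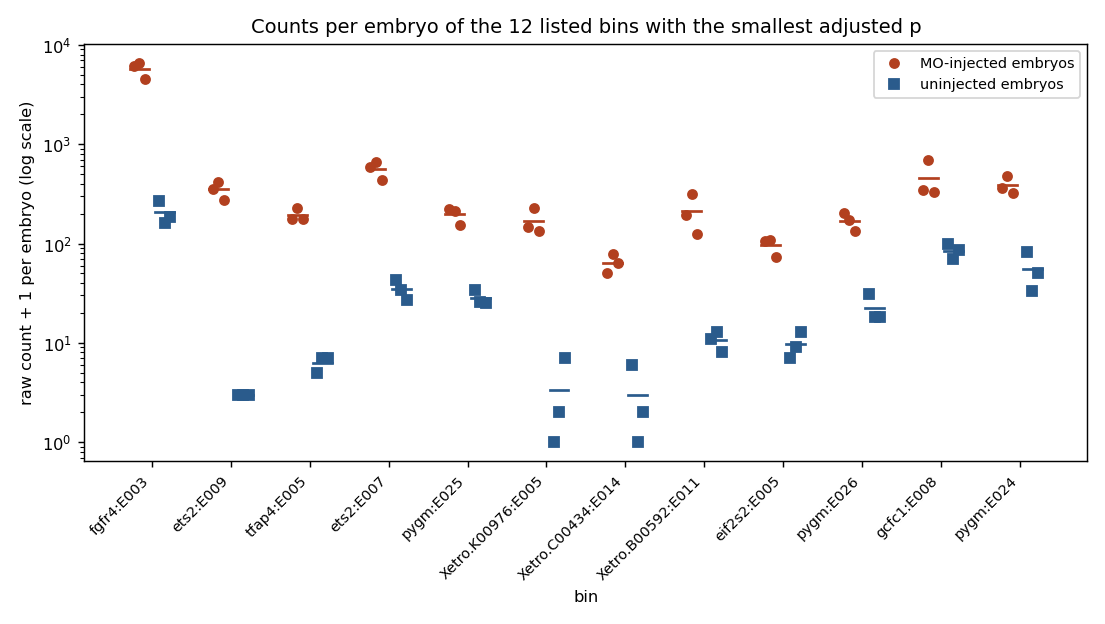
Raw count plus 1 (log scale) in each embryo for the 12 listed bins with the smallest adjusted p, in order from the left, with circles for MO-injected and squares for uninjected embryos and a bar at each group's mean. The groups are separate in all 12 bins, and fgfr4 E003 is the most covered, with 4489 to 6578 reads in MO-injected embryos and 160 to 269 reads in uninjected embryos.

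A role was assigned to 148 of the 192 bin genes. The largest groups were chromatin and transcription cofactors with 18 genes, signals and receptors with 16 and RNA processing with 14. Transcription factors had 13 genes and the cytoskeleton group 12. RNA processing had 24 bins, the most of any role, of which pdcd7 held 6 and pan3 held 3. Roles were written for listed genes only. No share over all tested genes can stand beside these counts, and a large group does not show that its role was affected more. Lipid genes, which made up 13 of the listed expression changes, had 2 bin genes, and nuclear envelope and pore genes had 0. The direction of a bin says nothing about the level of its gene.

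In the RNA processing group, bins were listed in genes of the core spliceosome, of splicing regulation and of RNA decay and export. The U4/U6-U5 protein gene prpf6 had, in bin E017, 56, 78 and 68 reads in the MO-injected embryos, against 8, 17 and 9 reads in the uninjected embryos. The SR protein gene srsf4 had, in bin E008, 22, 42 and 22 reads in the MO-injected embryos, against 2, 8 and 6 reads in the uninjected embryos. The paraspeckle splicing factor gene sfpq had, in its better covered bin E011, 213, 213 and 165 reads in the MO-injected embryos, against 14, 52 and 72 reads in the uninjected embryos. The groups were apart in all 3 genes, most widely in prpf6, where the ratio was 5.94. The exosome subunit gene exosc2 had, in bin E002, 126, 187 and 135 reads in the MO-injected embryos, against 11, 12 and 24 reads in the uninjected embryos. The RNA-editing deaminase gene adar had, in bin E006, 43, 54 and 48 reads in the MO-injected embryos, against 6, 6 and 13 reads in the uninjected embryos. The other members were aqr, puf60 and prpf39.1 of splicing, nxf1 of messenger RNA export, and the zinc knuckle genes zcchc8 and zcchc17. With gcfc1, pan3 and pdcd7, described above, the group had 14 genes. None of the 14 was on the expression list, which is near the share of all 192 bin genes that were (11, or 5.73%).

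Among transcription factors, bins were listed in ets1, isl1, phox2a, mycn, runx1, id3, rorb.2 and 3 zinc finger genes besides ets2, tfap4 and irx2. The ETS factor gene ets1, which acts in blood vessels and neural crest, had in bin E011 40, 26 and 12 reads in the MO-injected embryos, against 2, 2 and 1 reads in the uninjected embryos. The LIM homeobox gene isl1, of motor neurons and heart, had in bin E008 59, 31 and 12 reads in the MO-injected embryos, against 2, 0 and 9 reads in the uninjected embryos. The groups did not overlap in either, though in isl1 the lowest MO-injected count, 12, was close to the highest uninjected count, 9. The neuronal homeobox gene phox2a had in bin E008 62, 40 and 38 reads in the MO-injected embryos, against 2, 10 and 12 reads in the uninjected embryos, and the groups were well apart. The BMP target gene id3 had in its first bin E001 30, 20 and 20 reads in the MO-injected embryos, against 2, 7 and 2 reads in the uninjected embryos.

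Signalling genes with bins came from several pathways. For Notch, the ligand gene jag1 had in bin E027 15, 14 and 24 reads in the MO-injected embryos, against 0, 0 and 0 reads in the uninjected embryos. Its raw ratio was 17.7 against the floor of 3 reads. The Notch coactivator gene maml1 had in bin E007 9, 16 and 12 reads in the MO-injected embryos, against 1, 1 and 3 reads in the uninjected embryos. For Wnt, the secreted inhibitor gene sfrp2 had in bin E001 25, 4 and 19 reads in the MO-injected embryos, against 0, 0 and 0 reads in the uninjected embryos. Its raw ratio was 16 against the same floor. The receptor-clearing ligase gene znrf3 had in bin E005 13, 28 and 18 reads in the MO-injected embryos, against 3, 4 and 2 reads in the uninjected embryos. The bins of jag1 and sfrp2 were free of reads in every uninjected embryo, and those of maml1 and znrf3 were not. For BMP and TGF-beta, the ubiquitin ligase gene smurf2 had in bin E001 139, 135 and 126 reads in the MO-injected embryos, against 1, 9 and 23 reads in the uninjected embryos. The uninjected embryos differed widely there, and all were far below the MO-injected ones, with a ratio of 12.1, which was 26.7 without uninjected column 3. The ligand gene bmp7.1, in bin E006, had 4, 22 and 11 reads in the MO-injected embryos, against 1, 0 and 0 reads in the uninjected embryos. For receptor kinase signalling, the GTPase gene hras had in bin E003, which is 6 bases wide, 18, 25 and 39 reads in the MO-injected embryos, against 4, 0 and 1 reads in the uninjected embryos. The receptor gene neo1, of netrin and repulsive guidance signals, had 2 bins, with 28, 20 and 17 reads in E027 in the MO-injected embryos, against 0, 4 and 3 reads in the uninjected embryos.

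The chromatin group included asxl1, of Polycomb deubiquitination, with 162, 211 and 120 reads in the MO-injected embryos, against 30, 15 and 28 reads in the uninjected embryos in bin E009, and tada1, of the SAGA complex, with 178, 121 and 86 reads in the MO-injected embryos, against 32, 32 and 34 reads in the uninjected embryos in bin E010. The BAF subunit gene smarce1 had in bin E013, a single base, 46, 63 and 25 reads in the MO-injected embryos, against 2, 0 and 4 reads in the uninjected embryos. All had separate groups. The histone demethylase gene phf8 had in bin E013 17, 30 and 6 reads in the MO-injected embryos, against 0, 0 and 0 reads in the uninjected embryos, at least 17.7-fold higher, or 11.5-fold without column 2 of the injected embryos. The H4K20 methyltransferase gene setd8 had in bin E005 33, 121 and 24 reads in the MO-injected embryos, against 11, 9 and 7 reads in the uninjected embryos, with column 2 far above the other injected embryos. The clock genes per2 and per3 had 1 and 2 bins, and general transcription genes with 1 bin each were polr2c, supt5h, gtf2h4 and ints6.

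Other roles had fewer or less covered bins. Among kinases, the diacylglycerol kinase gene dgka had 2 bins in its 16th and 17th introns by the authors' deposited table of retained introns. Bin E011 of dgka had 45, 89 and 52 reads in the MO-injected embryos, against 0, 1 and 3 reads in the uninjected embryos, with few reads in any uninjected embryo, and bin E009 had 98, 137 and 83 reads in the MO-injected embryos, against 0, 20 and 28 reads in the uninjected embryos, where uninjected column 1 had no read. In the cytoskeleton group, ocln, a tight junction protein gene, had in bin E002 41, 160 and 37 reads in the MO-injected embryos, against 3, 1 and 0 reads in the uninjected embryos, and fmnl3, a formin gene, had in bin E011 52, 156 and 94 reads in the MO-injected embryos, against 17, 2 and 16 reads in the uninjected embryos. In both, MO-injected column 2 was the highest, as it was in 121 of the 228 bins, against 76 for column 1 and 31 for column 3. Ties were counted for the lower-numbered column. The uninjected columns are not ranked in this way, since the 49 bins without an uninjected read are ties. Each uninjected column had a median of 1 read per listed bin. Columns 1, 2 and 3 had no read in 84, 88 and 87 bins. The ribosomal protein gene rpl28 had in bin E001 54, 49 and 34 reads in the MO-injected embryos, against 3, 5 and 9 reads in the uninjected embryos. The innate immune adaptor gene myd88 had in bin E006 36, 43 and 39 reads in the MO-injected embryos, against 2, 0 and 2 reads in the uninjected embryos. The helicase loader gene cdc6 had in bin E004 93, 62 and 69 reads in the MO-injected embryos, against 1, 1 and 7 reads in the uninjected embryos, and most of the uninjected reads were in column 3. The unassigned c16orf72 had, in bin E008, among the 5 best covered bins, 254, 343 and 320 reads in the MO-injected embryos, against 92, 40 and 73 reads in the uninjected embryos. Proteasome genes psmc2, psma5 and psmg1 had 1 bin each with ratios of 4.50 in psmc2 and 5.12 in psmg1 and 2 uninjected reads in psma5.

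In 6 bins the groups overlapped. The tubulin gene tuba1c had in bin E001 18, 71 and 8 reads in the MO-injected embryos, against 30, 5 and 10 reads in the uninjected embryos, and alkaline phosphatase, alpl, had in bin E002 3, 9 and 2 reads in the MO-injected embryos, against 6, 2 and 2 reads in the uninjected embryos. In both, single uninjected embryos exceeded single MO-injected ones, and the share within the gene was listed as higher while raw counts were little apart. Without MO-injected column 2, the raw ratio fell from 2.16 to 0.867 in tuba1c and from 1.40 to 0.75 in alpl. The other 4 bins with overlap were in prmt3, gpr110, sorcs3 and Xetro.F01868, with means of the MO-injected counts of at most 13.7 reads.

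Both lists held 11 genes, which is 3.77% of the expression list and 5.73% of the bin genes. Of these, 5 were higher in expression and 6 were lower. By the authors' deposited table the higher ones were fgfr4 (0.85, SE 0.225), tfap4 (0.66, SE 0.214), cdc6 (0.70, SE 0.188), arrdc2 (0.99, SE 0.253), of the alpha-arrestin type, and the unnamed Xetro.E01322 (2.33, SE 0.496). The lower ones by the authors' deposited table were alpl (-3.0, SE 0.322), Xetro.G01392 (-1.32, SE 0.337), prmt3 (-1.24, SE 0.268), atpaf2 (-0.98, SE 0.242), aldoa (-0.77, SE 0.172) and ctdsp2 (-0.51, SE 0.0900). In fgfr4 the reads of the bin can be part of the gene's count, and the tables do not allow the gene to be counted without it. Bins of the 6 lower genes gained share while the gene's level fell. In atpaf2, bin E002 had 73, 95 and 44 reads in the MO-injected embryos, against 27, 19 and 31 reads in the uninjected embryos. The raw ratio was 2.75, without correction for depth. By the authors' deposited tables usage of the bin changed by 1.12 and the level of the gene by -0.98 on the log2 scale. In aldoa, bin E005 had 29, 28 and 32 reads in the MO-injected embryos, against 9, 13 and 7 reads in the uninjected embryos. Usage of that bin changed by 1.05 and the level of the gene by -0.77 by the authors' deposited tables. Whether either bin gained reads at equal depth was not tested.

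Both lists were set beside those of stage 15, the neurula, where the MO-injected and uninjected embryos were other animals (3 and 4). Of these, 1 uninjected embryo counted there carries stage 10 in its description and stage 15 in its title and stage field. The stage 15 expression list held 2094 genes (13.2% of at least about 15850 tested), all changed at least 2-fold. Of the 292 genes of stage 10, 53 were on it, which is 18.2% of the stage 10 list and 2.53% of the stage 15 list. Among the 135 genes that changed at least 2-fold at stage 10, 37 were shared (27.4%). Direction was the same in 46 shared genes, 26 higher and 20 lower at both stages, and opposite in 7. The 239 others were not shown to be unchanged at stage 15, since smaller changes were not listed there.

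The difference between stages was tested for the 53 genes with a two-sided Wald test on the authors' deposited fold changes and standard errors. It passed a Benjamini-Hochberg adjusted p of 0.05 in 20 genes (37.7%). The 7 genes of opposite direction were among them, which their listing at both stages with opposite signs makes nearly certain. The largest of these differences with a named gene was that of has-rs, at -1.71 (SE 0.410) at stage 10 and 1.88 (SE 0.383) at stage 15 by the authors' deposited table. The anterior neural factor gene dmrta2 was at 1.48 (SE 0.385) at stage 10 and -1.50 (SE 0.269) at stage 15 by the authors' deposited table. The junctophilin gene jph1 was at 1.31 (SE 0.197) and -1.12 (SE 0.208), znf385b at 1.46 (SE 0.398) and -1.39 (SE 0.354), timp3 at 0.84 (SE 0.247) and -1.06 (SE 0.254), and the RNA-binding zinc finger gene zc3h6 at -0.96 (SE 0.247) and 1.02 (SE 0.230), at stages 10 and 15 of the authors' deposited table. Thus jph1, dmrta2, znf385b and timp3 were higher at stage 10 and lower at stage 15, and has-rs and zc3h6 the reverse.

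The other 13 genes moved the same way at both stages, 12 of them further at stage 15. The 2-fold minimum of the stage 15 list favours this, since a gene with a smaller change at stage 10 could be shared only if it was larger there. The Nodal co-receptor gene tdgf1 was at 1.13 (SE 0.351) at stage 10 and 3.61 (SE 0.463) at stage 15 by the authors' deposited table, and btg4 at 1.80 (SE 0.482) and 6.39 (SE 0.777). On the lower side, the splicing-related gene rbm23 was at -1.23 (SE 0.270) at stage 10 and -3.0 (SE 0.281) at stage 15 by the authors' deposited table. The exception was alpl, at -3.0 (SE 0.322) at stage 10 and -1.78 (SE 0.280) at stage 15 by the authors' deposited table, and its difference was lost under Holm's adjustment (Wald test, adjusted p = 0.157). The increase of lonrf3 did not pass the test of a difference (adjusted p = 0.131, Benjamini-Hochberg), at 4.07 (SE 0.504) at stage 10 and 2.75 (SE 0.470) at stage 15 by the authors' deposited table.

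**Figure D5:**
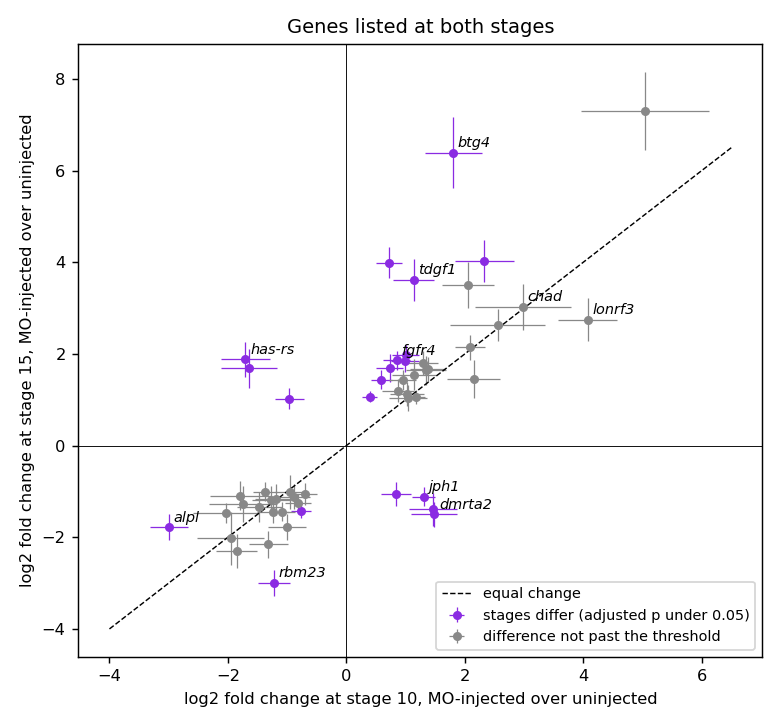
Log2 fold changes, MO-injected over uninjected, of the 53 genes listed at both stages, with stage 10 on the horizontal and stage 15 on the vertical axis and bars of 1 standard error, from the authors' deposited tables. The 20 purple genes passed the test of a difference between stages, and the gap left around 0 on the vertical axis is the 2-fold minimum of the stage 15 list.

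The bin lists of the stages were also set side by side. Of the 228 bins, 108 were also listed at stage 15, which is 47.4% of the stage 10 bins and 7.56% of the 1429 bins of stage 15 (0.747% of at least about 191386 tested). By gene, 90 of the 192 had a listed bin at both stages. The median usage change of the 108 shared bins by the authors' deposited tables was 1.63 at stage 10 and 1.92 at stage 15, and it was larger at stage 10 in 39 bins. Shared bins were better covered at stage 10, with a median mean count of 11.8 reads, against 5.42 reads in bins listed at stage 10 alone. The leading bins of fgfr4, ets2, tfap4, eif2s2 and irx2 were listed at both stages, whereas gcfc1 E008 and smarce1 E013 were listed at stage 10 alone. The overlaps were not tested, as the lists have different thresholds.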

How the data were processed

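RNA of 6 single embryos, 3 MO-injected and 3 uninjected, was measured. The submitters' processing notes list Bowtie, TopHat, Cuffdiff, Cufflinks, DESeq2 and DESeq, without versions or roles. The sources used here give neither annotation nor build. Per the file headers, the authors deposited for each gene a mean normalised count (a signal; it is the same number in both stages' tables and so is a mean over all embryos), and a log2 fold change, its SE, and raw and adjusted p-values. For bins, the authors deposited raw counts per embryo, their plain mean (a signal), a fitted usage score for each condition, on a scale that is not given, the log2 of their ratio, and raw and adjusted p-values. The deposited usage ratio has the uninjected embryos on top, so its sign was reversed here. The count columns are numbered 1 to 3, and the labels tie no number to an embryo. The repeated header line at the end of the bin table was left out, and every per-embryo column was used.

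No model was refitted, because the tables hold listed items only. The number tested is a lower bound worked back from raw and Benjamini-Hochberg adjusted p-values. Stages were compared with a two-sided Wald test on the deposited values, adjusted over the 53 shared genes. It took the standard errors of both stages as independent, and the sources do not say whether the stages were fitted together. Both calculations were tested on simulated data. Python 3.11.15, numpy 2.4.6, pandas 2.3.3, scipy 1.17.1 and matplotlib 3.10.9 were used. Of the 292 gene identifiers, 249 matched RefSeq's table for UCB_Xtro_10.0, which was used for names only, as did 161 of the 192 bin genes. Identifiers of the form Xetro (36 genes) and 1 name turned into a date were kept in counts.

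The members and lists were chosen with earlier results of these data known. Genes were named by size of change (10 with a symbol in each direction), adjusted p (10 in each direction), mean count (5 in each direction), membership of the gene lists, of both tables or of the stage differences; bins by adjusted p (10), mean count (5) and 3 or more per gene. Other genes were named by role after their values were seen. Some genes that these rules name are not reported here. Alternatives were stricter thresholds, filters on low counts, other pseudocounts, leaving out each embryo, the replicate block and Holm's adjustment. Same-numbered columns of the groups had deviations that correlated at -0.0839, -0.0212 and 0.0126 over bins. The numbers were not taken to pair the embryos, but these correlations over selected bins with few reads cannot exclude that they do.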

Additional observations from a re-analysis of the deposited data

Results flagged for a closer look

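The change after MO injection differed between stage 10 and stage 15 in 20 of the 53 genes listed at both, by a two-sided Wald test with Benjamini-Hochberg adjustment. The values that follow are differences of log2 fold changes, stage 10 minus stage 15, from the authors' deposited tables. The folds had opposite signs for jph1 (2.43), dmrta2 (2.99), znf385b (2.86), timp3 (1.89), has-rs (-3.59), zc3h6 (-1.99) and Xetro.D01070 (-3.32). They were higher at both stages, and more so at stage 15, for btg4 (-4.58), Xetro.I00996 (-3.27), tdgf1 (-2.48), Xetro.E01322 (-1.71), fgfr4 (-1.02), got2 (-0.98), mov10l1 (-0.96), gpi (-0.85), gpbp1 (-0.85) and smcr7l (-0.67). They were lower at both stages, and more so at stage 15, for rbm23 (1.77) and aldoa (0.66), and more so at stage 10 for alpl (-1.22). All 53 genes were selected at both stages, which enlarges folds near a threshold. All stage 15 folds were at least 2-fold, so a gene under 2-fold at stage 10 was shared only if larger at stage 15. This set the direction for smcr7l, gpi, Xetro.I00996, mov10l1, aldoa, fgfr4, gpbp1 and got2, which moved the same way at both stages. Listing at both stages made a difference nearly certain for the genes of opposite sign. Under Holm's adjustment 13 genes differed in place of 20. The stage 15 embryos carry titles in more than 1 style, the labels do not say what the styles mark, and their part in these differences was not tested. Groups of 3 embryos were not searched for single outlying embryos.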

How the results depend on the processing

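Counts depend on the threshold. Of the 127 higher and 165 lower genes, 44 and 59 (103 in all) were left at an adjusted p under 0.01 and 54 and 81 (135 in all) at a change of at least 2-fold; the share of higher genes was 40.0% to 44.2% over all settings. Of the 228 bins, 127 were left at an adjusted p under 0.01 and 94 at a mean count of at least 10. The median log2 ratio of bin counts, 3.04, was 2.63 with a pseudocount of 1 and 1.57 with a pseudocount of 5, as most bins had few reads. Leaving out 1 embryo at a time gave 2.88 to 3.17, and 222 to 224 bins without overlap. With the replicate block it was 3.09, although no label says that the column numbers pair the embryos. Under Holm's adjustment 13 genes differed between stages in place of 20, and alpl, Xetro.E01322, got2, aldoa, gpbp1, gpi and mov10l1 were lost. Scaling by size factors was not run, because the deposited mean of the bins is that of raw counts and gives none. Of the 20 roles, 12 had more lower than higher genes, against 11 among genes changed at least 2-fold, where signals and receptors turned to 1 higher and 3 lower and nuclear envelope and pore had 0 and 0. Ratios of single bins without each embryo were computed after seeing the data. The unknown depth limits all comparisons of raw counts between embryos.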
